A study of Mus musculus with 18 samples.

Results

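The TCA cycle and fatty acid oxidation were followed through 46 genes, chosen by name as those of pyruvate entry into the mitochondrion, of the cycle itself and of the breakdown of fatty acids. All 46 were found among the 53465 genes of the count table. In the TCA cycle, acetyl-CoA from pyruvate or from fatty acids is joined to oxaloacetate and oxidised, and the electrons released feed the respiratory chain. Beta-oxidation shortens fatty acids inside the mitochondrion, after the carnitine shuttle has carried them in, and passes electrons to the chain through the electron transfer flavoprotein. Both routes are known to be used more by macrophages exposed to IL-4 than by macrophages in an inflammatory state, which rely on glycolysis. The members were grouped by role, with 12 genes of pyruvate entry, 16 of the TCA cycle, 4 of fatty acid activation and the carnitine shuttle, 11 of beta-oxidation and 3 of the electron transfer flavoprotein.

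Microglia and macrophages were sorted by cytometry from the same contused spinal cords of adult female C57BL/6J mice, microglia as CD45-low and macrophages as CD45-high cells, both CD11b+ and F4/80+. Each mouse received a single injection into the cord 48 h after spinal cord injury (SCI), of PBS (mice 1, 2 and 3), recombinant IL-13 (rIL-13, mice 5, 6 and 7) or recombinant IL-4 (rIL-4, mice 8, 9 and 10), and the cells were collected 24 h later. This gave 18 libraries from 9 mice, with 3 in each of 6 groups. All groups shared the injury and the injection, and cells from uninjured cord were not analysed here. Fold changes are given on the log2 scale with their SE unless marked as fold. Values below are CPM (counts scaled to the same library total), corrected by TMM factors over the 18 libraries, and where 3 values are given they follow the order of the mice above. A gene was called differentially expressed (DE) at an adjusted p under 0.05 in edgeR's quasi-likelihood test.

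The libraries held between 35961305 and 45849829 counts. The 8 microglia markers summed to 5399.5 to 10043 CPM in PBS microglia and to 2572 to 3741 CPM in PBS macrophages. None of the 8 was at 0 in all libraries of a group. With rIL-13 and rIL-4 the sums were 1062 to 2181 and 437 to 759 CPM in macrophages, below every PBS library, and 2494 to 6869.6 and 2409 to 4100.4 CPM in microglia, of which the rIL-13 range overlapped PBS. The 10 fibroblast and pericyte markers summed to 2764 to 3910.1 CPM in PBS microglia, 1319 to 8389 CPM in rIL-13 microglia and 243 to 1621 CPM in rIL-4 microglia, against at most 10.8 CPM in any macrophage library. The 13 mitochondrially encoded protein genes took 2.18 to 3.01% of the counts in PBS microglia, 3.28 to 3.53% in rIL-13 microglia, 6.35 to 12.2% in rIL-4 microglia. In macrophages they took 0.532 to 0.745% with PBS, 0.604 to 0.713% with rIL-13 and 0.836 to 1.41% with rIL-4, where each library lay above every PBS library. With these genes left out of the fit, an alternative added after the data had been seen, each count of members called with a cytokine stayed as given below.

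Summed over the 46 members, the level was 3792 ± 39.7 CPM (SD, n = 3) in PBS microglia, 4248 ± 66.4 CPM in rIL-13 microglia and 4436 ± 34.2 CPM in rIL-4 microglia. The sum in macrophages was 3636 ± 78.9 CPM with PBS, 4407 ± 314 CPM with rIL-13 and 4687 ± 36.1 CPM with rIL-4. In both cell types every library of a cytokine group lay above every PBS library. The 16 genes of the TCA cycle made up most of the sum, with 1966 ± 62.01, 2229 ± 97.95 and 2426 ± 47.9 CPM in microglia and 1944 ± 45.7, 2409 ± 128 and 2659 ± 17.3 CPM in macrophages, in the order PBS, rIL-13 and rIL-4. The sums are a description and were not tested. In the same libraries the 7 stress and immediate early genes were lower with either cytokine, at 628 to 785 CPM in PBS microglia against 274 to 409.5 with rIL-13 and 306 to 494 with rIL-4, and at 2549.7 to 2745 CPM in PBS macrophages against 1428 to 2217 and 1635 to 2030.3. The 7 endothelial markers summed to 45.1 to 53.6 CPM in PBS macrophages, 134 to 218 with rIL-13 and 205 to 429.9 with rIL-4, and to 864 to 1888, 1630.0 to 2761 and 1961 to 2599 CPM in microglia. In rIL-4 macrophages 2 of these 7 markers, Pecam1 and Flt1, rose and 4 fell. None of either list was at 0 in all libraries of a group. The number of genes with at least 1 count was 17620 to 18371 in PBS microglia, 16132 to 16832 with rIL-13 and 15193 to 15626 with rIL-4, without overlap, and 17553 to 18174, 16867 to 17591 and 17452 to 17529 in macrophages in that order, where the rIL-13 range overlapped PBS. The part of these lists, of the number of genes found and of the mitochondrially encoded share in the members' sums was not tested.

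Among the members, the levels per kilobase of annotated exon spanned a wide range in PBS libraries. Mdh2, the mitochondrial malate dehydrogenase, stood first in both cell types, with 146 CPM per kilobase in microglia and 174 in macrophages. Cs, the citrate synthase that opens the cycle, had 83.8 and 78.8 CPM per kilobase in microglia and macrophages and was at rank 4 of 46 in both. Idh1, the cytosolic isocitrate dehydrogenase, was at rank 3 in macrophages with 81.3 CPM per kilobase and at rank 22 in microglia with 34.1. Pdk4, a kinase that inhibits pyruvate dehydrogenase, was the lowest in both and is described with its family below. In PBS libraries the median coefficient of variation over the 3 mice was 9.49% in microglia and 7.35% in macrophages. It was 14.6% and 12.2% with rIL-13 and 15.8% and 9.65% with rIL-4.

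The first question was whether either cytokine changed these genes against PBS. In macrophages, 12 of the 45 members tested rose with rIL-4 and 0 fell, where 6.77% of all 13606 genes tested rose and 7.2% fell. These 12 were Idh2, Pdk3, Idh1, Eci1, Etfb, Pdhb, Aco1, Sucla2, Etfa, Hadhb, Etfdh and Pdha1, in order of their p. DESeq2 called 17 there, these 12 with Acaa2, Dlst, Idh3g and Suclg2 as higher and Pcx as lower. Of the 12, Idh1 and Aco1 act in the cytosol and Pdk3 inhibits pyruvate dehydrogenase, so the count is not one of TCA cycle enzymes alone. With rIL-13, 4 members rose in macrophages (Pdk3, Idh2, Etfa and Idh1) and 0 fell, where 2.53% of genes rose and 1.66% fell. In microglia, Idh1 and Idh3b rose with rIL-4 and Pdk4 fell, 2 and 1 of 46 members, where 1.33% of 15566 genes rose and 0.887% fell. There DESeq2 called 10 members and 1 edgeR model over all 18 libraries called 7, each with these 3 among them, and both added Idh2, Eci1, Etfa and Acadm. Throughout, the shares of all genes called are those of the main edgeR fits. The member counts from DESeq2 and the other fits were not set beside the share of all genes called there. With rIL-13, 0 members rose and 0 fell in microglia, where 0.283% of genes rose and 0.0835% fell, and DESeq2 called 0 members. An unadjusted p under 0.05 was found for 5 of 46 members, all 5 higher, and for 7.76% of all genes. The comparisons with rIL-4 and rIL-13 shared their PBS libraries in each cell type.

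The median log2 fold change of the members against PBS was 0.29 with rIL-4 and 0.24 with rIL-13 in macrophages, beside 0.02 and 0.00 over all genes tested. In microglia it was 0.22 with rIL-4 and 0.21 with rIL-13, beside -0.06 and 0.00 over all genes. Of the members tested, 39 of 45 had a positive fold change with rIL-4 and 42 of 45 with rIL-13 in macrophages, and 34 and 35 of 46 in microglia; these counts include members that did not pass the test. Of the 12 calls in rIL-4 macrophages, 3 held without rIL-4 mouse 10, 4 without PBS mouse 1 or PBS mouse 2, 5 without PBS mouse 3, and 6 when mouse 8 or mouse 9 of the rIL-4 group was left out; without mouse 8 Suclg1 was called in addition. The 4 calls in rIL-13 macrophages became 0 without any 1 of PBS mice 1, 2 and 3 and rIL-13 mice 5 and 7. Without rIL-13 mouse 6 there were again 4. In the macrophage library of mouse 6 the 6 neutrophil markers summed to 2874 CPM. Their sum was 486 and 460 CPM in mice 5 and 7 and 634 to 1208 CPM in PBS macrophages. The part of neutrophil RNA in the calls was not tested. The 3 calls in rIL-4 microglia became 1 when PBS mouse 1, 2 or 3 or rIL-4 mouse 10 was left out, and 2 when mouse 8 or 9 was.

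**Figure D1:**
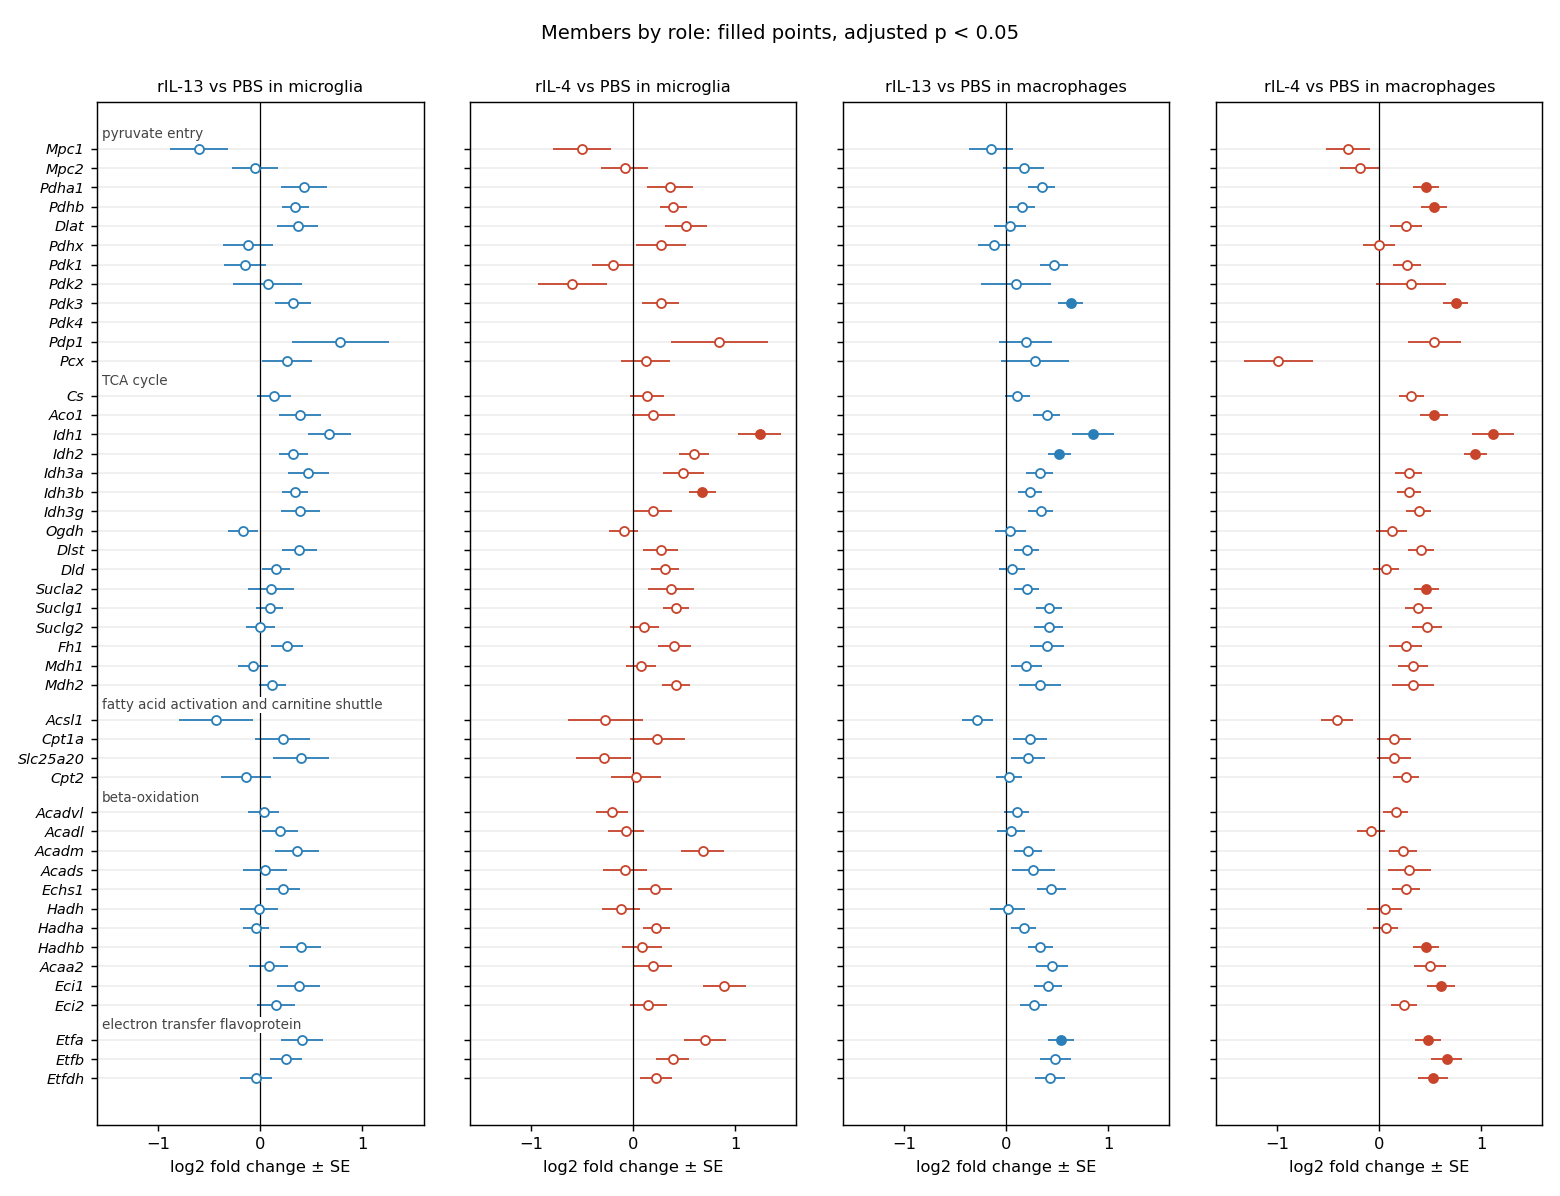
The log2 fold change against PBS (horizontal axis, ± SE from edgeR) is plotted for each member, grouped by role, with rIL-13 in blue and rIL-4 in red; filled points passed an adjusted p of 0.05, and no point is drawn for Pdk4, whose counts are at or near 0 in rIL-4 microglia and macrophages. All 16 genes of the TCA cycle lie right of 0 in both macrophage panels, with Idh1 farthest right.

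In each comparison with PBS that gave calls, Idh1 had the largest rise. Idh1 (ENSMUSG00000025950.16, GRCm38 chromosome 1 from 65158616 to 65186500) makes NADPH in the cytosol and peroxisomes, and so is not an enzyme of the mitochondrial cycle itself. In macrophages Idh1 was at 200.5, 205 and 198 CPM with PBS, 411, 261 and 411 with rIL-13 and 522, 350.5 and 436 with rIL-4. Every cytokine library exceeded every PBS library, and the PBS libraries differed little among themselves. The log2 fold change was 1.12 ± 0.21 SE, adjusted p = 0.00570, with rIL-4, which is 2.17-fold, and 0.85 ± 0.21 SE, adjusted p = 0.0475, with rIL-13. In microglia Idh1 was lower throughout, at 88.3, 71.1 and 94.2 CPM with PBS, 137, 113 and 154 with rIL-13 and 173, 164 and 255 with rIL-4. The 3 groups did not overlap. The fold change was 1.24 ± 0.21 SE, adjusted p = 0.0206, with rIL-4 (2.36-fold), and with rIL-13 it was 0.68 ± 0.21 and did not pass (adjusted p = 0.399). The call in rIL-4 macrophages held without each of the 6 libraries in turn (adjusted p of 0.00554 to 0.0306). In rIL-4 microglia it held only without rIL-4 mouse 8 or 9 (0.0282 to 0.0986), and in rIL-13 macrophages only without rIL-13 mouse 6 (0.00906 to 0.167). The 8 monocyte-derived macrophage markers summed to 850 to 1257 CPM in PBS microglia, 5500 to 7869 with rIL-13 and 12453 to 22285 with rIL-4. Of these 8, Chil3, which also responds to IL-4, and Ms4a7 were called higher in rIL-4 microglia and 0 lower. The part of macrophage RNA in the Idh1 values of microglia was not tested.

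Idh2 (ENSMUSG00000030541.16, chromosome 7 from 80094846 to 80115392) is the NADP-dependent enzyme of the mitochondrial matrix. In macrophages it was at 90.3, 88.8 and 89.4 CPM with PBS, 140.0, 121 and 123 with rIL-13 and 179, 167 and 169.7 with rIL-4. The 3 groups were separate, with rIL-4 highest. The log2 fold change against PBS was 0.94 ± 0.11 SE, adjusted p = 0.000602, with rIL-4, the lowest p of any member there, and 0.52 ± 0.11 SE, adjusted p = 0.0310, with rIL-13. The rIL-4 call held without each of the 6 libraries (adjusted p of 0.00212 to 0.00600) and the rIL-13 call only without rIL-13 mouse 6 (0.0310 to 0.137). In microglia Idh2 was at 95.2, 97.8 and 102 CPM with PBS, 127, 108 and 132 with rIL-13 and 127, 152 and 158 with rIL-4. The cytokine libraries lay above the PBS libraries, but the fold changes of 0.59 ± 0.15 with rIL-4 and 0.32 ± 0.14 with rIL-13 did not pass (adjusted p = 0.0774 and 0.647).

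Idh3a, Idh3b and Idh3g encode the subunits of the NAD-dependent enzyme, the one that works in the TCA cycle. Idh3b (ENSMUSG00000027406.12, chromosome 2 from 130279309 to 130284547) was at 107, 119 and 117 CPM in PBS microglia, 144, 137 and 152 CPM in rIL-13 microglia and 198, 167 and 175 CPM in rIL-4 microglia. The 3 groups did not overlap, and the fold change was 0.68 ± 0.13 SE, adjusted p = 0.0308, with rIL-4. This call was lost without any 1 of the 6 libraries (adjusted p of 0.0595 to 0.165). With rIL-13 the fold change of Idh3b was 0.34 ± 0.13 (adjusted p = 0.570). In macrophages Idh3b was at 91.8, 98.5 and 105 CPM with PBS and 112, 133 and 117 CPM with rIL-4, a fold change of 0.29 ± 0.12 that did not pass (adjusted p = 0.130). Idh3a had fold changes of 0.49 ± 0.20 and 0.29 ± 0.13 with rIL-4 in microglia and macrophages, and Idh3g of 0.20 ± 0.19 and 0.39 ± 0.12. None of these passed (adjusted p of 0.0606 to 0.726).

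**Figure D2:**
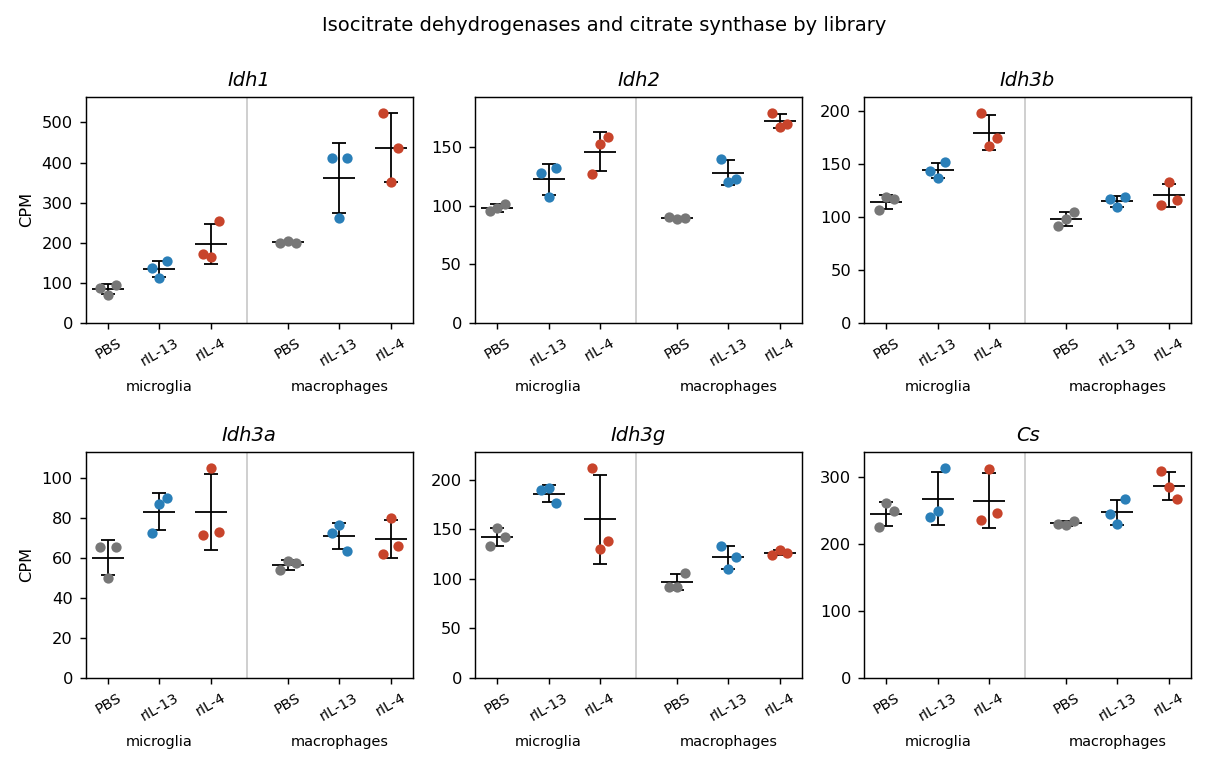
CPM (vertical axis, from 0) of the isocitrate dehydrogenases and of Cs is shown for each library by treatment and cell type, with the mean and SD of 3 mice in black. Idh1 is higher in macrophages than in microglia under each treatment, and the rIL-4 macrophages, at 179, 167 and 169.7 CPM, hold the highest Idh2 values.

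The promoters of Idh1, Idh2 and Idh3b, the isocitrate dehydrogenase genes called with rIL-4 in either cell type, are shown together with that of Pdk4, the member that fell in rIL-4 microglia. RefSeq windows on GRCm38.p6, from 250 bases before to 50 bases after a gene's start, were matched to 43 of the 46 members, taking the window nearest to the annotated gene start; Idh3a, Pdp1 and Acaa2 were not matched. The 250 bases before the start are printed from 5′ to 3′ on the gene's strand, and capitals mark a match to TTC and GAA with any 4 bases between them, the spacing bound by STAT6, the factor activated by IL-4 and IL-13. The printed bases lie at chr1:65186480-65186729 for Idh1, chr7:80115351-80115600 for Idh2, chr2:130284452-130284701 for Idh3b and chr6:5496279-5496528 for Pdk4, all on the minus strand.
Idh1: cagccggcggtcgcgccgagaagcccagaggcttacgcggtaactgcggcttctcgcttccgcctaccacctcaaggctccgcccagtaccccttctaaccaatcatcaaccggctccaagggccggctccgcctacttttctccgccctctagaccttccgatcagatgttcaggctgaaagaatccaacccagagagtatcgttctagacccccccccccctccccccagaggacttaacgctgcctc
Idh2: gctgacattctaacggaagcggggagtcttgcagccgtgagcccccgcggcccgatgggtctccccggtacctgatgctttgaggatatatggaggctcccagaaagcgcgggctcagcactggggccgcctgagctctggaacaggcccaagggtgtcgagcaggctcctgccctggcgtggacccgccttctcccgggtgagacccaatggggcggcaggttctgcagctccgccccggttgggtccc
Idh3b: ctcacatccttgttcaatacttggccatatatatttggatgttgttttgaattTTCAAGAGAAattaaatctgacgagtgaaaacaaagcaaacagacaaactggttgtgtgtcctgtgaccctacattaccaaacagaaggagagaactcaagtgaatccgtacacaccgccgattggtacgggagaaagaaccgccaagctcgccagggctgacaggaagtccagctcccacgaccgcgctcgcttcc
Pdk4: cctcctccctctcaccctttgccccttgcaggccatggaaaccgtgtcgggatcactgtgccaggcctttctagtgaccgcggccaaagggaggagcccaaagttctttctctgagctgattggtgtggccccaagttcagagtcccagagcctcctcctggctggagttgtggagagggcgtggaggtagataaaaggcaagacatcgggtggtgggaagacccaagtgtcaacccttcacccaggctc
Of these 4, Idh3b held a match, beginning 197 bases before the start. This pattern was found in windows of 2 of the 43 members (Idh3b and Fh1) and of 8.01% of the 27025 genes with a window. The same pattern with 3 bases between, TTCNNNGAA, was found in 3 members (Cpt2, Hadha and Hadhb) and 9.55% of genes. The direct repeat bound by PPAR factors, AGGTCA followed after any 1 base by AGGTCA, was found in 0 members and 0.0481% of genes. The first pair of patterns read the same on both strands, and the last was searched on both. A match is a description of the letters and not of binding.

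Of the rest of the TCA cycle, Aco1 and Sucla2 rose with rIL-4 in macrophages. Aco1, the cytosolic aconitase, which also acts as iron regulatory protein, was at 63.4, 53.2 and 55.4 CPM with PBS and 82.9, 80.9 and 85.9 CPM with rIL-4 (0.54 ± 0.13 SE, adjusted p = 0.0241). Sucla2, the ADP-forming subunit of succinyl-CoA ligase, went from 59.96, 62.6 and 68.7 CPM to 86.4, 91.6 and 85.6 CPM (0.46 ± 0.12 SE, adjusted p = 0.0267). Neither pair of groups overlapped, and the call of Aco1 held only without PBS mouse 1 and that of Sucla2 in none of the 6 fits that left out a library. With rIL-13 the fold changes were 0.39 ± 0.13 and 0.20 ± 0.12 (adjusted p = 0.147 and 0.436). Cs was at 229.6, 228 and 235 CPM in PBS macrophages, 245, 229.9 and 267 CPM with rIL-13 and 308, 285 and 266 CPM with rIL-4, and its fold changes of 0.31 ± 0.12 with rIL-4 and 0.11 ± 0.12 with rIL-13 did not pass (adjusted p = 0.117 and 0.714). In microglia Cs had fold changes of 0.14 ± 0.17 and 0.13 ± 0.17 with rIL-4 and rIL-13 (adjusted p = 0.805 and 1.00).

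In macrophages 4 of the 16 genes of the cycle rose with rIL-4 and 2 with rIL-13, and all 16 had a positive fold change in each comparison, from 0.06 to 1.12 and from 0.04 to 0.85. In microglia 15 of 16 had a positive value with rIL-4, of which 2 passed, and 14 of 16 with rIL-13, of which 0 passed. Dlst, which encodes the succinyltransferase of the 2-oxoglutarate dehydrogenase complex, had the fifth lowest p of the members in rIL-13 microglia without passing. It was at 129, 145 and 167 CPM with PBS and 151, 222 and 200.3 CPM with rIL-13, which overlapped (0.38 ± 0.17 SE, adjusted p = 0.643). Ogdh, the first enzyme of the same complex, had fold changes of -0.09 ± 0.14 and -0.17 ± 0.14 in microglia and 0.12 ± 0.15 and 0.04 ± 0.15 in macrophages with rIL-4 and rIL-13, and its groups overlapped each time. At the end of the cycle, Mdh2 reached 249.7, 313 and 277 CPM in rIL-4 microglia from 210.2, 221 and 208 CPM with PBS (0.42 ± 0.13 SE, adjusted p = 0.165).

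Pyruvate enters the cycle through pyruvate dehydrogenase, whose E1 subunits are Pdha1 and Pdhb. Both rose in rIL-4 macrophages. Pdhb was at 82.1, 78.5 and 83.9 CPM with PBS and 120.1, 118 and 117 CPM with rIL-4 (0.54 ± 0.13 SE, adjusted p = 0.0196), and Pdha1 at 106, 92.6 and 92.7 and 150.2, 123 and 128 CPM (0.46 ± 0.13 SE, adjusted p = 0.0424). The groups did not overlap for either gene, and each call held only in the fit without rIL-4 mouse 9. In microglia Pdhb was at 78.7, 89.9 and 93.6 CPM with PBS, 113, 104 and 114 with rIL-13 and 115, 116 and 108 with rIL-4. Both cytokine groups lay above PBS, and neither fold change passed (0.34 ± 0.13 with rIL-13, adjusted p = 0.578, and 0.39 ± 0.13 with rIL-4, adjusted p = 0.183). Dlat and Pdhx, the other parts of the complex, did not pass in any comparison with PBS. The pyruvate carriers Mpc1 and Mpc2 had fold changes of -0.50 and -0.09 in rIL-4 microglia and -0.31 and -0.19 in rIL-4 macrophages, with overlapping groups.

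The pyruvate dehydrogenase kinases, which switch the complex off, were heterogeneous. Pdk3 (ENSMUSG00000035232.8, chromosome X from 93764607 to 93832201) was at 35.7, 35.6 and 39.1 CPM in PBS macrophages, 59.4, 52.5 and 58.5 CPM with rIL-13 and 56.2, 66.1 and 63.3 CPM with rIL-4. Both cytokine groups were clear of PBS, and Pdk3 rose by 0.75 ± 0.12 SE, adjusted p = 0.00302, with rIL-4 and by 0.63 ± 0.12 SE, adjusted p = 0.0184, with rIL-13. The rIL-4 call held without each of the 6 libraries and the rIL-13 call only without rIL-13 mouse 6. So the 12 genes that rose with rIL-4 in macrophages included both E1 subunits and a kinase that inhibits them. In microglia Pdk3 had fold changes of 0.27 ± 0.18 and 0.32 ± 0.18 with rIL-4 and rIL-13 (adjusted p = 0.553 and 0.809). Pdk1, known as a target of the hypoxia factor HIF-1, was at 63.8, 64.4 and 59.5 CPM in PBS macrophages and 83.4, 89.4 and 85.3 CPM with rIL-13. These groups did not overlap, but the fold change of 0.47 ± 0.14 did not pass (adjusted p = 0.0998). Pdk2 had fold changes of -0.60 ± 0.34 in rIL-4 microglia and 0.31 ± 0.34 in rIL-4 macrophages, and its groups overlapped.

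Pdk4 (ENSMUSG00000019577.6, chromosome 6 from 5483351 to 5496309), the kinase best known as a target of PPAR and FOXO factors in fasting, was the member with the widest difference. In microglia it was at 3.67, 6.28 and 2.85 CPM with PBS and 5.78, 22.9 and 7.12 CPM with rIL-13. In rIL-4 microglia 0, 0 and 1 counts were found in the 3 libraries. Pooled over the mice, the PBS level was 558 times the rIL-4 level, with a 95% exact interval of 99.7 to 22076 that covers counting error only (edgeR adjusted p = 0.00754). The rIL-13 level was 1554 times the rIL-4 level, with an interval of 279 to 61428 (adjusted p = 0.0397). Mouse 6 gave 1093 of the 1703 rIL-13 counts, and without it the ratio was 840.2 (150.2 to 33239.5). Both ratios rest on the 1 count of rIL-4 mouse 10, without which there is no ratio. Had each rIL-4 library held 3 counts, the PBS level would be 59.8 times and the rIL-13 level 167 times the rIL-4 level. The call against PBS held without each of the 6 libraries (0.0219 to 0.0293), and the call against rIL-13 was lost without any 1 of the 6 (0.0526 to 0.139). In macrophages Pdk4 was at no more than 0.198 CPM in any library, and edgeR's filter left it out of those fits. The 10 fibroblast and pericyte markers, of which 10 of 10 were found in each microglia group, were also lowest on average with rIL-4. Their sum was 2764, 3910.1 and 2884 CPM in PBS microglia, 1961, 8389 and 1319 CPM with rIL-13 and 1621, 942 and 243 CPM with rIL-4. Mouse 6 was highest in both, but rIL-13 mice 5 and 7 had marker sums below every PBS library while their Pdk4 was not below the PBS range. The rIL-4 library of mouse 8 held 0 counts of Pdk4 beside a marker sum within the range of the rIL-13 libraries. The part of these cells in the Pdk4 values was not tested, and in bulk libraries fewer cells of a type and less RNA per cell cannot be told apart.

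**Figure D3:**
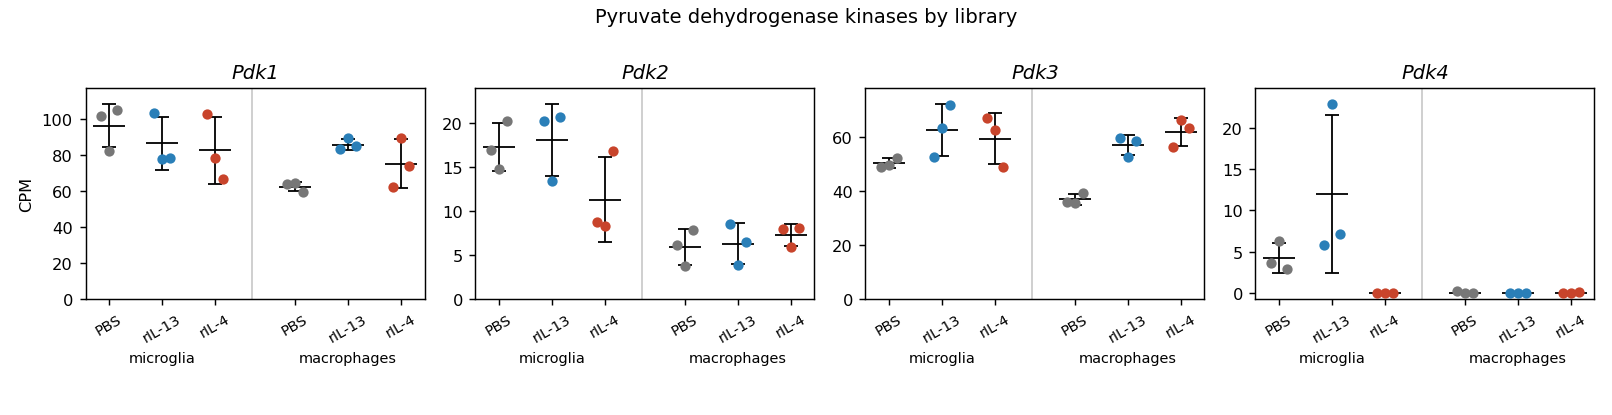
CPM (vertical axis) of the 4 pyruvate dehydrogenase kinases is shown for each library by treatment and cell type, with the mean and SD of 3 mice in black. Pdk3 is higher in every cytokine-treated macrophage library than in the PBS macrophage libraries, and Pdk4 is found in PBS and rIL-13 microglia and is at or near 0 elsewhere.

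Pcx, the pyruvate carboxylase that refills oxaloacetate, was at 2.77, 1.49 and 2.06 CPM in PBS macrophages, 2.83, 2.75 and 2.09 CPM with rIL-13 and 1.21, 1.07 and 0.896 CPM with rIL-4. The rIL-4 libraries were below the others, with a fold change of -0.99 ± 0.34 against PBS that did not pass in edgeR (adjusted p = 0.0827). Pcx was called lower there by DESeq2 (adjusted p = 0.0305) and in the edgeR model over all 18 libraries (adjusted p = 0.0457). The sum of the microglia markers in macrophage libraries was lowest with rIL-4 too, and Pcx was 6.93-fold higher in microglia than in macrophages with PBS. The part of microglial RNA in these values was not tested. Pdp1, the phosphatase that reactivates pyruvate dehydrogenase, had fold changes of 0.84 ± 0.47 and 0.54 ± 0.26 with rIL-4 in microglia and macrophages (adjusted p = 0.442 and 0.210).

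Of the genes that bring fatty acids into the mitochondrion, 0 of 4 passed in any of the comparisons with PBS. Cpt1a, the carnitine palmitoyltransferase that sets the rate of the pathway, was at 99.2, 93.2 and 95.4 CPM in PBS microglia, 118, 85.99 and 129 CPM with rIL-13 and 93.3, 77.3 and 163 CPM with rIL-4. In macrophages it was at 188, 166 and 173 CPM, 218, 158 and 239 CPM and 209, 175 and 199 CPM. All cytokine groups overlapped PBS, and the fold changes were 0.23 ± 0.27 and 0.22 ± 0.27 in microglia and 0.14 ± 0.17 and 0.23 ± 0.17 in macrophages with rIL-4 and rIL-13 (adjusted p of 0.534 to 1 in these 4 tests). Acsl1, which activates long-chain fatty acids, had a negative value each time, from -0.43 in rIL-13 microglia to -0.27 in rIL-4 microglia. Slc25a20, the carnitine-acylcarnitine carrier, was at 24.6, 25.02 and 24.3 CPM in PBS microglia, 27.05, 43.2 and 27.1 CPM with rIL-13 and 13.7, 20.9 and 24.9 CPM with rIL-4. Cpt2, the inner-membrane partner of Cpt1a, had fold changes between -0.14 and 0.26.

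Beta-oxidation gave 2 calls of 11 genes, Eci1 and Hadhb, both in rIL-4 macrophages. Eci1, an isomerase needed for unsaturated fatty acids, was at 17.6, 20.3 and 21.6 CPM with PBS, 26.01, 27.2 and 25.7 with rIL-13 and 26.1, 31.7 and 32.5 with rIL-4 (0.60 ± 0.14 SE, adjusted p = 0.0167, for rIL-4). In microglia it was at 21.8, 18.9 and 20.9, 28.3, 25.7 and 25.5 and 46.7, 29.5 and 36.5 CPM. Every cytokine library lay above every PBS library in both cell types, yet the fold change of 0.89 ± 0.21 in rIL-4 microglia did not pass (adjusted p = 0.0667). Hadhb, the thiolase subunit of the mitochondrial trifunctional protein, was at 87.8, 87.8 and 98.4 CPM in PBS macrophages and 127, 126 and 124 CPM with rIL-4 (0.46 ± 0.13 SE, adjusted p = 0.0367). Its partner subunit Hadha was at 126, 112 and 125 and 117, 141 and 122 CPM, with overlapping groups (0.07 ± 0.12 SE, adjusted p = 0.785). The call of Eci1 held only without PBS mouse 3 or rIL-4 mouse 8, and that of Hadhb in none of the 6 fits without a library. Over the 11 genes the median fold change was 0.24 with rIL-4 and 0.27 with rIL-13 in macrophages, and 0.15 and 0.15 in microglia. The acyl-CoA dehydrogenases Acadvl, Acadl, Acadm and Acads, which take the first step for chains of decreasing length, passed in none of these comparisons, and Acadm had the largest value, 0.68 ± 0.21 in rIL-4 microglia (adjusted p = 0.155).

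Hadha and Hadhb lie head to head, and are shown because their products form a single enzyme while their fold changes in rIL-4 macrophages fell on either side of the threshold. Their RefSeq starts are 272 bases apart on opposite strands, so that 228 of the 250 bases before each start are shared. The window of Hadhb, chr5:30155003-30155252 on the plus strand, is printed with its match to TTCNNNGAA in capitals, beginning 125 bases before the start.
Hadhb: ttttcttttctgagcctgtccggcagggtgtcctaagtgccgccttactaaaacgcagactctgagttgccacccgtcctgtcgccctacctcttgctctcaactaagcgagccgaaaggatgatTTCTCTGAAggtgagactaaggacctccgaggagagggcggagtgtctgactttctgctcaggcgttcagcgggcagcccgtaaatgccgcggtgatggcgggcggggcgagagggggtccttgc
The same letters, read on the other strand, are the match counted for Hadha.

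The 3 genes that carry electrons from beta-oxidation to the respiratory chain all rose with rIL-4 in macrophages. Etfa and Etfb encode the subunits of the electron transfer flavoprotein, and Etfdh the enzyme that passes its electrons to ubiquinone. Etfb was at 51.7, 71.9 and 67.3 CPM with PBS and 96.99, 100.3 and 105 CPM with rIL-4 (0.66 ± 0.15 SE, adjusted p = 0.0170). Etfa was at 75.8, 92.8 and 88.3 CPM with PBS, 136, 114 and 121 with rIL-13 and 108, 123 and 127 with rIL-4, and rose with both (0.48 ± 0.13 SE, adjusted p = 0.0337, with rIL-4, and 0.54 ± 0.13 SE, adjusted p = 0.0468, with rIL-13). Etfdh went from 45.2, 36.3 and 52.4 CPM to 64.6, 63.8 and 64.5 CPM with rIL-4 (0.53 ± 0.15 SE, adjusted p = 0.0391). None of these cytokine groups overlapped PBS. The rIL-4 call of Etfb held without PBS mouse 2 or rIL-4 mouse 8 or 9, that of Etfa only without rIL-4 mouse 8 and that of Etfdh only without PBS mouse 3. The rIL-13 call of Etfa held only without rIL-13 mouse 6. In microglia the fold changes with rIL-4 were 0.70 ± 0.21 for Etfa, 0.39 ± 0.16 for Etfb and 0.23 ± 0.16 for Etfdh and did not pass (adjusted p = 0.134, 0.269 and 0.569).

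The second question was whether the cytokines differed from each other. In macrophages 0 of 45 members passed between rIL-4 and rIL-13, where 0.0294% of genes were higher and 0.22% lower with rIL-4. An unadjusted p under 0.05 was found for 4 of the 45 members and 11.1% of all genes. DESeq2 called 2 members, Idh2 and Pcx. The lowest p belonged to Idh2, whose difference was 0.42 ± 0.11 SE, adjusted p = 0.179, with rIL-4 higher and no overlap between the groups. Next came Pcx (-1.27 ± 0.34, adjusted p = 0.179), Pdhb (0.38 ± 0.13, 0.283), Sucla2 (0.26 ± 0.12, 0.446) and Cpt2 (0.23 ± 0.13, 0.551). In microglia Pdk4 alone passed, lower with rIL-4 as given above, 1 of 46 members, where 0% of genes were higher and 0.0385% lower. The members with the next lowest p were Idh1 at 0.56 ± 0.21 (adjusted p = 0.388), Idh3b at 0.34 ± 0.13 (0.399), Slc25a20 at -0.69 ± 0.27 (0.407) and Suclg1 at 0.33 ± 0.13 (0.407). The median difference of the members was 0.05 in macrophages and 0.07 in microglia, beside 0.00 and -0.02 over all genes.

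The third question was how the 2 cell types of the same cords differed. With PBS, 11 of 46 members were higher in microglia and 4 were lower, where 24.5% of all genes were higher and 16.3% lower. The members' share was near this background for the higher calls and below it for the lower ones, and the difference from the background was not tested. With rIL-13, 6 members were higher and 2 lower (17.2% and 9.46% of genes), and with rIL-4, 4 of 45 were higher and 1 lower (13.4% and 9.97%). The median over the members was 0.06 with PBS, 0.04 with rIL-13 and 0.02 with rIL-4. Of the 15 calls with PBS, 9 held without mouse 1, 11 without mouse 2 and 9 without mouse 3, where Etfdh was gained. Of these 15, Idh1, Pcx, Cpt1a, Suclg2, Eci2, Pdk4, Pdk2 and Pdp1 passed without each of the 3 mice in turn, Idh3g failed without mouse 2, Acsl1, Pdk1 and Hadhb failed without mouse 1 or 3, and Pdk3, Hadh and Fh1 failed without any 1 mouse. The 8 calls with rIL-13 became 2 without mouse 5 or mouse 7, and of the 5 calls with rIL-4, 2 held without mouse 8 and 2 without mouse 10, where Cpt1a was gained. Pcx held in every such fit with each treatment and Pdk4 with PBS and rIL-13. With rIL-13 Eci2 and Idh3g failed without any 1 mouse, and Idh1, Cpt1a, Suclg2 and Pdk2 without mouse 5 or 7. With rIL-4 Idh1 failed without mouse 8, Suclg2 without mouse 10, and Eci2 and Idh3b without either of these mice.

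Pcx (ENSMUSG00000024892.16, chromosome 19 from 4510472 to 4621752) differed most after Pdk4. It was at 12.2, 18.98 and 13.98 CPM in PBS microglia, against 2.77, 1.49 and 2.06 CPM in PBS macrophages. The groups lay far apart, with a log2 fold change of 2.79 ± 0.33 SE, adjusted p = 0.000254. Under rIL-13 it was 2.83 ± 0.30 SE, adjusted p = 0.000728, and under rIL-4 3.95 ± 0.35 SE, adjusted p = 0.000304. Pdk4 was found in microglia and hardly in macrophages, with 150, 291 and 124 counts against 7, 0 and 0 under PBS (5.89 ± 1.11 SE, adjusted p = 0.00289). The size of this fold change is not well fixed, since the 7 counts are all from mouse 1 and the fitted value ran from 4.93 to 10.48 with 1 mouse left out, the higher without mouse 1. Pdk4 was at least 131-fold higher in microglia under rIL-13, taking 3 counts a library as the limit for the macrophages, which held 0 (adjusted p = 0.00256). Without mouse 6 this bound was 71.03-fold. The fibroblast and pericyte markers differed between the gates in the same direction, as given above, and their part was not tested. Suclg2, the GDP-forming subunit of succinyl-CoA ligase, was at 69.02, 69.8 and 73.7 CPM in PBS microglia and 31.7, 24.98 and 32.8 CPM in PBS macrophages (1.21 ± 0.15 SE, adjusted p = 0.000356), while Sucla2, the ADP-forming subunit, was at 67.8, 56.4 and 63.1 and 59.96, 62.6 and 68.7 CPM (-0.06 ± 0.13 SE, adjusted p = 0.735). Suclg2 differed also under rIL-13 (0.85 ± 0.17) and rIL-4 (0.89 ± 0.15). Eci2, a partner of Eci1 in isomerising unsaturated chains, was higher in microglia under all 3 treatments, by 0.88 ± 0.14 with PBS, 0.82 ± 0.20 with rIL-13 and 0.82 ± 0.16 with rIL-4. Eci1 had a difference of 0.02 ± 0.16 with PBS.

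Pdk2 was at 16.97, 14.8 and 20.2 CPM in PBS microglia and 6.08, 3.72 and 7.84 CPM in PBS macrophages (1.52 ± 0.30 SE, adjusted p = 0.00394). Pdk1 was also higher in microglia with PBS, at 102, 82.6 and 105 CPM against 63.8, 64.4 and 59.5 CPM (0.59 ± 0.13 SE, adjusted p = 0.00743), and so was Pdk3 (0.41 ± 0.13 SE, adjusted p = 0.0311). With PBS all 4 kinases were thus higher in the microglia gate. With rIL-4 the differences of Pdk1, Pdk2 and Pdk3 were 0.16 ± 0.22, 0.66 ± 0.39 and -0.03 ± 0.18 and did not pass. With rIL-13 Pdk2 passed, at 1.54 ± 0.37, and so did Idh3g, at 0.63 ± 0.15. Idh3g, Hadhb, Hadh and Fh1 completed the members higher in PBS microglia, with log2 fold changes from 0.36 to 0.52. With the mouse as a block Fh1 did not pass (edgeR adjusted p = 0.0588). Idh3b passed in the rIL-4 comparison alone, with 198, 167 and 175 CPM in microglia against 112, 133 and 117 CPM in macrophages (0.60 ± 0.14 SE, adjusted p = 0.0193).

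Lower in microglia were Idh1 under all 3 treatments (-1.28 ± 0.13 SE, adjusted p = 0.000126, with PBS) and Cpt1a with PBS (-0.91 ± 0.11 SE, adjusted p = 0.000338) and rIL-13 (-0.87 ± 0.23 SE, adjusted p = 0.0295). With rIL-4 the difference of Cpt1a was -0.78 ± 0.28 and did not pass (adjusted p = 0.0867). It passed with the mouse as a block (edgeR adjusted p = 0.0425), in DESeq2 (adjusted p = 0.0416) and in the edgeR model over all 18 libraries (adjusted p = 0.0168). Pdp1 was at 8.51, 13.2 and 12.1 CPM in PBS microglia and 22.5, 23.6 and 21.8 CPM in PBS macrophages (-1.04 ± 0.21 SE, adjusted p = 0.00411). Acsl1 was at 31.9, 32.9 and 29.1 and 48.5, 42.2 and 44.03 CPM (-0.55 ± 0.14 SE, adjusted p = 0.0132). Of the members, Acsl1 and Cpt1a were thus lower in PBS microglia, while Hadhb, Hadh and Eci2 of beta-oxidation were higher. Other isoforms went the other way. Of 26 other fatty acid oxidation genes tested, 8 were higher in PBS microglia, Cpt1c and Acsl3 among them, and 0 lower. Of all genes, 24.5% were higher and 16.3% lower. Cs was at 225, 260.4 and 249.6 CPM in PBS microglia and 229.6, 228 and 235 CPM in PBS macrophages, which overlapped (0.05 ± 0.11 SE, adjusted p = 0.728). The other two comparisons of Cs gave 0.13 ± 0.17 with rIL-13 and -0.09 ± 0.16 with rIL-4.

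**Figure D4:**
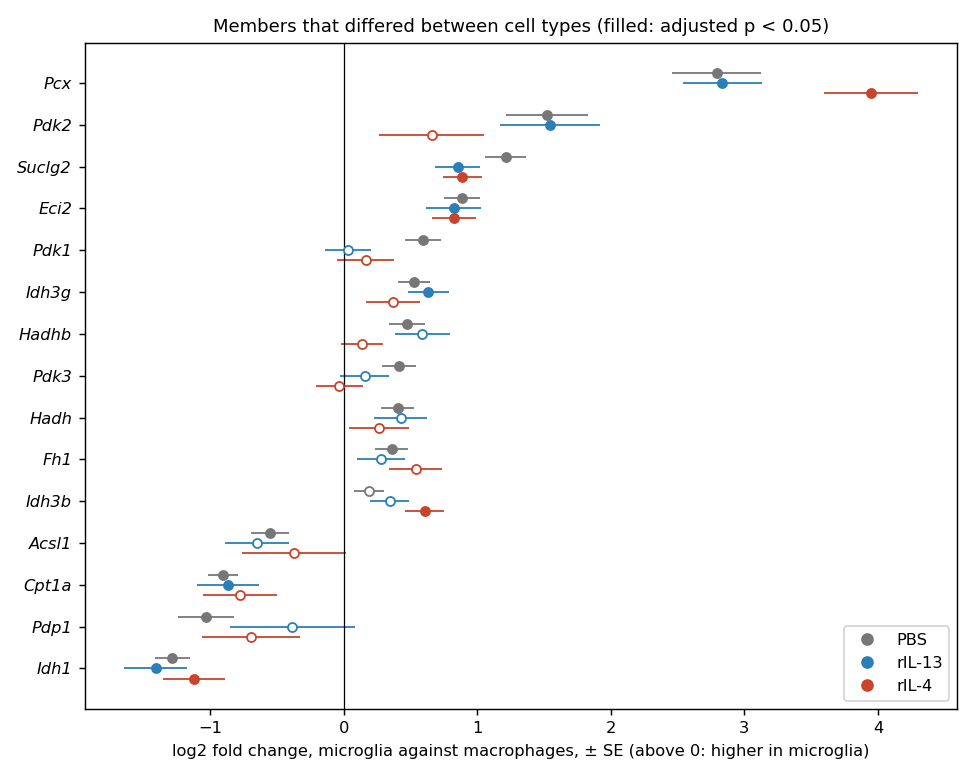
The log2 fold change of microglia against macrophages (horizontal axis, ± SE from edgeR, above 0 higher in microglia) is plotted for the 15 members other than Pdk4 that passed under at least 1 treatment, with PBS in grey, rIL-13 in blue and rIL-4 in red and filled points at an adjusted p under 0.05. Pcx lies far to the right and Idh1 to the left under all 3 treatments.

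A final test asked, as an interaction over all 18 libraries, whether a cytokine acted differently in microglia and macrophages. For rIL-4 against PBS, 0 of 46 members passed, where 0.992% of genes did. Of the members 5 had an unadjusted p under 0.05, beside 12.4% of all genes, and DESeq2 called 1, Pdk4. The 3 lowest p belonged to Pdk4 (adjusted p = 0.156), Pcx (1.09 ± 0.39, adjusted p = 0.229) and Pdk3 (-0.51 ± 0.21, 0.318), where a positive value means a more positive change in microglia. For rIL-13 against PBS, 0 passed (0.0242% of genes), 4 had an unadjusted p under 0.05, beside 5.83% of all genes, and DESeq2 called 0. The leading members were Pdk1 (-0.61 ± 0.25, 0.744), Pdk4 (0.744) and Etfdh (-0.48 ± 0.21, 0.782). For rIL-4 against rIL-13, 0 passed (0.139% of genes), 3 had an unadjusted p under 0.05, beside 10.0% of all genes, and DESeq2 called 1, again Pdk4. There the leading members were Pdk4 (0.0954), Pcx (1.11 ± 0.39, 0.371) and Pdhb (-0.36 ± 0.17, 0.496). No single member was thus shown by edgeR to respond differently in the cell types. The model over all 18 libraries called 7 members with rIL-4 in each cell type, against 3 in microglia and 12 in macrophages when each was fitted alone.

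Neighbouring genes of the same pathways were taken from lists of their own. Of 22 other TCA and pyruvate genes tested in macrophages, 4 rose and 2 fell with rIL-4. Ldha, the lactate dehydrogenase subunit that favours lactate, rose by 1.09 ± 0.15 SE, adjusted p = 0.00117, from 1099, 1388 and 1315 to 2475, 3003 and 2638 CPM, and Ldhb fell (-2.33 ± 0.33 SE, adjusted p = 0.00154). With PBS, microglia held 4.39-fold more Ldhb than macrophages, and the part of microglial RNA in its values was not tested. The succinate dehydrogenase subunits Sdhd (0.67 ± 0.14), Sdha (0.68 ± 0.18) and Sdhb (0.49 ± 0.13) rose in rIL-4 macrophages, and Got2, the mitochondrial aspartate aminotransferase, fell by 0.58 on the log2 scale. With rIL-13, Ldha (0.68 ± 0.15) and Sdhd (0.58 ± 0.14) rose and 0 fell. In microglia 1 of 24 passed with rIL-4, Sdhb, which went from 164, 160.2 and 156 to 257, 228 and 239 CPM (0.62 ± 0.12 SE, adjusted p = 0.0290), and 0 with rIL-13. Acod1, which diverts aconitate to itaconate, was at 17.1, 33.6 and 19.96 CPM in PBS macrophages, 2.29, 29.3 and 5.00 CPM with rIL-13 and 3.62, 11.4 and 6.38 CPM with rIL-4, and did not pass (adjusted p = 0.177 with rIL-4 and 0.580 with rIL-13). It was lower in PBS microglia, at 1.98, 1.57 and 1.86 CPM (-3.73 ± 0.30 SE, adjusted p = 3.57e-05).

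Of 24 other fatty acid oxidation genes tested in macrophages, Acat1, the acetoacetyl-CoA thiolase, rose with rIL-4 (0.59 ± 0.17, adjusted p = 0.0489) and 0 fell, and 0 of 24 passed with rIL-13. In microglia 0 of 27 passed with either cytokine. Of 14 regulators tested in macrophages, Ppargc1b, a coactivator of oxidative genes, rose with rIL-4 from 2.23, 2.20 and 1.95 to 9.49, 5.69 and 9.35 CPM (1.94 ± 0.34 SE, adjusted p = 0.00464), and Pparg from 11.1, 12.4 and 13.2 to 33.8, 42.6 and 40.7 CPM (1.67 ± 0.30 SE, adjusted p = 0.00528). With rIL-13 neither passed (adjusted p = 0.0578 and 0.0701), and in microglia 0 of 15 regulators passed with either cytokine. Of 7 PPAR target genes outside the members, Lpl, the lipoprotein lipase, fell in macrophages with rIL-4 (-1.30 ± 0.21, adjusted p = 0.00323) and rIL-13 (-1.25 ± 0.21, 0.0101), and Plin2, a coat protein of lipid droplets, fell with rIL-4 (-0.56 ± 0.15, 0.0352). In microglia Fabp5, a fatty acid carrier, rose with rIL-4 from 208, 319 and 208 to 571, 524 and 819.8 CPM (1.40 ± 0.23 SE, adjusted p = 0.0177), 1 of 8 targets. Fabp5 was 10.1-fold higher in PBS macrophages than in PBS microglia, and the part of macrophage RNA in these values was not tested. Of the 9 IL-4 and IL-13 response genes tested in macrophages, 7 rose with each cytokine, and of 7 tested in microglia, 6 rose with rIL-4 and 5 with rIL-13.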

How the data were processed

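RNA from sorted cells was made into SMART-seq2 libraries, a method that keeps neither strand nor molecular identifiers. According to the submitters' processing notes, the authors aligned reads to GRCm38 with STAR 2.5.3a and estimated gene counts with RSEM 1.3.0. The deposited expected counts were whole numbers, so no rounding was needed. The annotation release is not given in the sources used here.

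Genes were tested with edgeR 4.0.16 in R 4.3.3 (TMM factors, filterByExpr, glmQLFit and glmQLFTest, two-sided), and p-values were adjusted by Benjamini-Hochberg over all genes tested. Each cytokine comparison was fitted on the 9 libraries of its cell type, each cell type comparison on the 6 libraries of its treatment and the interactions on all 18. The steps were tested on simulated data. Fold changes are log2 with SE from the F statistic. Libraries of the same mouse share an animal, and their deviations from the group means correlated at 0.0485 to 0.205 over 9 mice, so a fit with the mouse as a block was an alternative. Gene positions and exon lengths came from GENCODE on GRCm38, in which all 46 identifiers were found. Overlapping or antisense genes cannot be separated by unstranded counts. Named members were those called, or those with the lowest p, with Pdk1 to Pdk4, Cpt1a, Cs and Acod1 always given, and further members were described for their role after values were seen. The members and lists were chosen with earlier results of these data known. Some genes of the further lists are not reported here by name.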

Additional observations from a re-analysis of the deposited data

How the results depend on the processing

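Alternative values were followed for the members called, or those with the lowest p, in each comparison. Of these values 695 kept their direction and side of the threshold, 149 kept the direction and lost the call, 8 gained it and 0 reversed. Calls gained by further members are not in these numbers. DESeq2 1.42.0 called 10 members in rIL-4 against PBS microglia (3 in the edgeR test), 2 in rIL-4 against rIL-13 macrophages (0), 9 between cell types with rIL-4 (5), and 1 (0) in each interaction with rIL-4. One model over all 18 libraries called 7 in rIL-4 microglia (3), 7 in rIL-4 macrophages (12), 2 in rIL-13 macrophages (4), and 10 (5) and 13 (8) between cell types with rIL-4 and rIL-13. Without the filter on low counts, 7 were called in rIL-4 macrophages and 2 in rIL-13 macrophages. Fitting only the 6 libraries compared gave 1 in rIL-13 macrophages and 0 in rIL-4 against rIL-13 microglia (1). A minimum of 10 counts in every library, which leaves Pdk4 out, also gave 0 in rIL-4 against rIL-13 microglia. Causes of the other changes were not tested.

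Leaving out 1 library gave 1 to 2 calls in rIL-4 microglia, 0 in each fit of rIL-4 against rIL-13 microglia, 3 to 7 in rIL-4 macrophages and 0 to 4 in rIL-13 macrophages. Leaving out 1 mouse gave 9 to 11, 2 to 5 and 2 to 6 calls between cell types with PBS, rIL-4 and rIL-13, and 0 in each interaction. With the mouse as a replicate block the counts between cell types were 14, 6 and 10 in that order, beside 15, 5 and 8, and 0 in each interaction; Fh1 with PBS lost its call, and Cpt1a with rIL-4 and Acaa2 and Acadl with rIL-13 gained one. Counts at or near 0 leave the level of Pdk4 in macrophages undetermined.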
